A study of Mus musculus with 24 samples.

Results

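The 32 genes described here make, regulate and move cholesterol. They are a list of mouse symbols that was chosen with earlier results of these data known. Their counts, set beside shares over all genes below, are therefore a description. All 32 were found by symbol among the 56750 entries of a bulk RNA-seq count table from mouse medial prefrontal cortex. Of the 32 genes, 18 encode enzymes of cholesterol synthesis, 5 encode regulators of that pathway and 9 encode transporters, receptors and cholesterol-modifying proteins. The 24 libraries form 6 groups of 4 by sample title, given here as SI_EE, SI_WT, SI_Con, GH_EE, GH_WT and GH_Con. SI marks social isolation and EE an enriched environment, while Con samples carry the treatment label control. The labels do not spell out GH. Every library has the genotype label 5xFAD, a mouse line that carries a human APP transgene driven by the neuronal Thy1 promoter. The 2 groups titled WT have the treatment label WT and the same genotype label, and an entry spelled APP, as in human, was counted in all 24 libraries at 337 to 4680 counts per 1000000 reads (CPM). What WT denotes is therefore not settled by the labels, and these groups are called SI_WT and GH_WT. Age is not given in the labels.

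Brain cholesterol is made locally, because lipoproteins of the blood do not cross the blood-brain barrier. Enzymes of the mevalonate pathway build isoprenoid units and then squalene, which is cyclised to lanosterol and converted in many steps to cholesterol. The transcription factor SREBP2, encoded by Srebf2, drives transcription of most of these enzymes. The escort protein SCAP carries it to the Golgi for activation when sterols are low, and INSIG proteins hold it back when sterols are high. Oligodendrocytes need much cholesterol for myelin, astrocytes supply it to neurons on lipoproteins, and neurons clear it by hydroxylation through CYP46A1.

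The upstream sequence of 4 genes is shown because these genes come up in the comparisons that follow and represent both the synthesis and the regulation genes. They were taken from the genes at an unadjusted p under 0.05 in SI_Con against GH_Con in edgeR. All 4 hold a match to a motif below, while the stretch of Idi1, of 145 bases, held none and is not shown. The sequences are RefSeq GRCm38.p6, read on the strand of the gene, and end before the first annotated transcribed base. Capitals mark matches to CCAAT, the box bound by NF-Y, or to TCACNCCAC, a sterol-response-type element, on either strand. They come from chr13:119690101-119690350 (plus strand), chr8:122443423-122443672 (minus strand), chr5:28071162-28071362 (plus strand) and chr1:121332590-121332839 (minus strand), in the order listed.
Hmgcs1: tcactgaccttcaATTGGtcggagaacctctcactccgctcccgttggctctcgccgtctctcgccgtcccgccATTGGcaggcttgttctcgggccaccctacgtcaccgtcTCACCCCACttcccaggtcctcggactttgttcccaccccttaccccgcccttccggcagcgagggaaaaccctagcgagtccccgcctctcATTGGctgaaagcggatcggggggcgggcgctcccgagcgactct
Mvd: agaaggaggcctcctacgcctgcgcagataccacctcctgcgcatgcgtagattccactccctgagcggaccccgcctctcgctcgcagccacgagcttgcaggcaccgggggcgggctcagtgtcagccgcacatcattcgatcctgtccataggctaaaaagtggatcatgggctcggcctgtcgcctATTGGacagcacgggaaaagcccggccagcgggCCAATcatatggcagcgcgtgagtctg
Insig1: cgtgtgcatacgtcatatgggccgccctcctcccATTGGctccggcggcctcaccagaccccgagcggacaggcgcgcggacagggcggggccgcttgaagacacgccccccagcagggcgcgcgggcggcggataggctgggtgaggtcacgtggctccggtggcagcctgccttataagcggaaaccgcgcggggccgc
Insig2: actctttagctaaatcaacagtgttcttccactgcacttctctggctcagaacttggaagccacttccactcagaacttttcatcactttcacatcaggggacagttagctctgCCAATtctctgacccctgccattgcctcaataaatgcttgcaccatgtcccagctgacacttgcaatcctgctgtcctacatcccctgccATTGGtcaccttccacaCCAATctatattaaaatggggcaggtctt
The first of these holds 3 CCAAT matches, as ATTGG, and the single TCACNCCAC match. A RefSeq window of 250 bases before to 50 after the start was at hand for 25 of the 32 genes. A CCAAT match lay in at least 1 window of 14 of 15 synthesis genes (93.3%), 4 of 5 regulation genes and 2 of 5 transport genes, and in 37.5% of all 27025 genes with windows. TCACNCCAC lay in a window of 1 of the 25 genes, Hmgcs1, and in 1.22% of all genes. The motifs do not overlap each other in letters, and these matches describe the sequence only.

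Total counts per library ran from 33683587 to 51274917. Some libraries stood apart. SI_EE 1 held cerebellar transcripts, with 342 CPM of the granule cell gene Gabra6 against 1.13 CPM or less in the other 23 libraries. In GH_Con 2, SI_Con 2, SI_Con 3 and SI_WT 4, longer genes lay lower than in the rest, with a rank correlation of gene length and deviation between -0.352 and -0.244. Summed over 8 markers of thalamus and habenula, SI_EE 1, GH_WT 4 and GH_WT 2 had 686, 587 and 418 CPM, against 97 to 258 CPM in the other libraries. Summed over 6 markers of choroid plexus, SI_Con 4, SI_EE 3 and GH_WT 2 had 1080, 572 and 359 CPM, against 4.94 to 82.9 CPM in the others. The sexes read from the counts were 1 female and 3 males in SI_EE, 3 females and 1 male in GH_Con, and 2 of each in SI_WT, SI_Con, GH_EE and GH_WT. Neuronal, astrocytic and oligodendrocyte marker genes were counted in every library.

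Each of the 32 genes had at least 323 reads in every library. Levels per length are given as mean CPM per kilobase of annotated exon over the 24 libraries. On this scale Hmgcs1, which makes HMG-CoA at the entry to the mevalonate pathway, was highest with 62.5 CPM per kb. The neuronal cholesterol hydroxylase Cyp46a1 followed with 51.3 CPM per kb, then Srebf2 with 33.7, the lipoprotein receptor Lrp1 with 33.1 and Insig1 with 28.2 CPM per kb. Srebf2 and Lrp1 do not differ beyond their spread, which was 22.4% and 18.2% of the mean over libraries. The lowest were Tm7sf2, a sterol reductase, with 2.83 CPM per kb and Lss, which cyclises squalene epoxide to lanosterol, with 2.82 CPM per kb. Across the 24 libraries the coefficient of variation ran from 7.57% for Scap to 29.1% for Idi1, against a median of 24.1% over all tested genes.

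**Figure D1:**
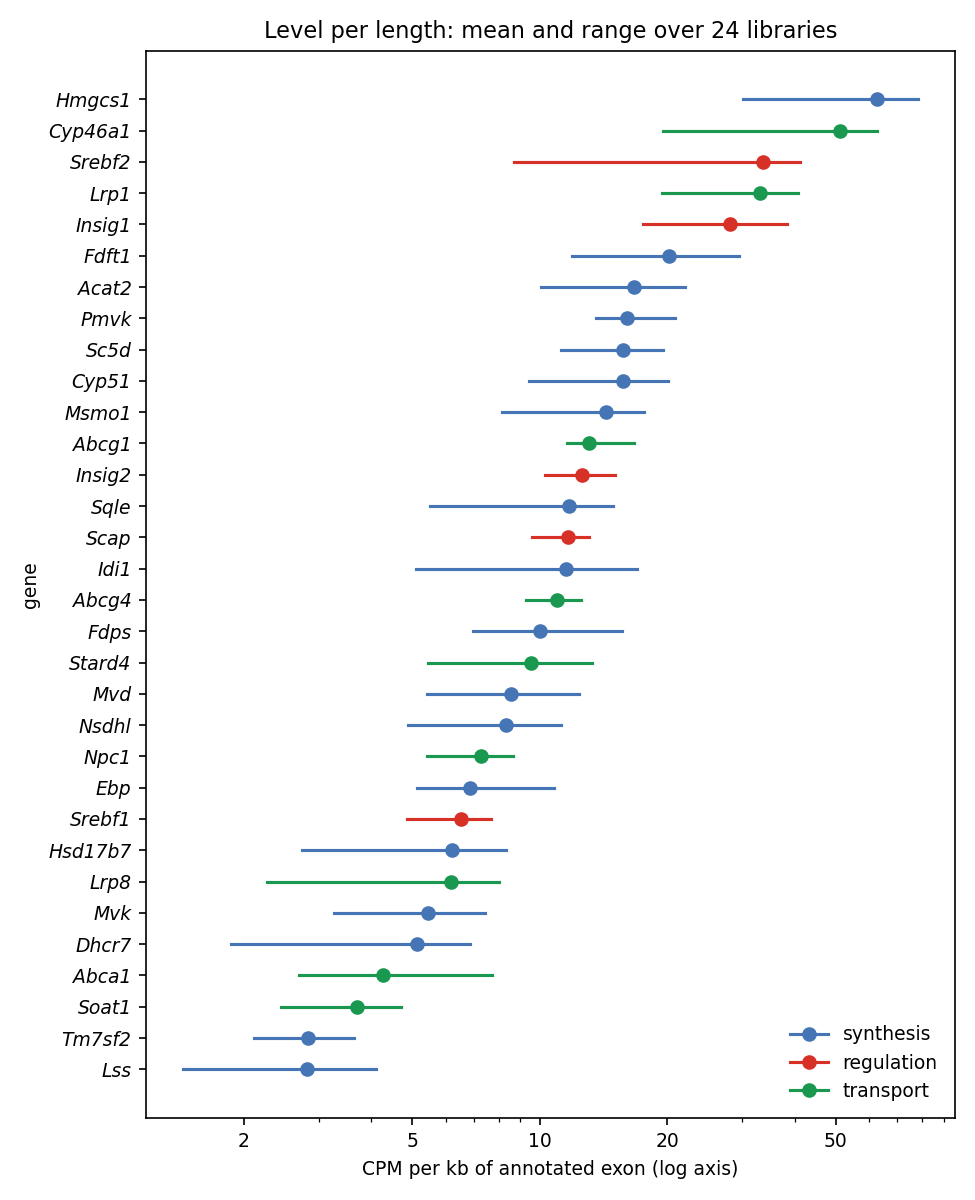
Level of each of the 32 genes per kilobase of annotated exon, on a log axis, with the mean over 24 libraries as a point and the lowest to highest library as a line. Colours mark synthesis, regulation and transport genes, and Hmgcs1 at 62.5 and Lss at 2.82 CPM per kb are the extremes.

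The synthesis genes were summarised as the mean log2 CPM of the 18 enzymes in each library. This mean was 5.09 ± 0.20 in SI_EE, 5.33 ± 0.14 in SI_WT, 5.08 ± 0.24 in SI_Con, 5.25 ± 0.18 in GH_EE, 5.37 ± 0.03 in GH_WT and 5.44 ± 0.06 in GH_Con (SD, n = 4 each). GH_WT and GH_Con had the narrowest spread, and SI_Con the widest. The 5 regulators averaged 6.14 ± 0.27 in SI_EE, 6.30 ± 0.06 in SI_WT, 6.19 ± 0.08 in SI_Con, 6.26 ± 0.14 in GH_EE, 6.34 ± 0.09 in GH_WT and 6.37 ± 0.03 in GH_Con (SD, n = 4 each). The 9 transport genes averaged between 6.25 ± 0.22 in SI_Con and 6.46 ± 0.08 in GH_WT (SD, n = 4 each). In bulk tissue, fewer cells of a type and less RNA per cell cannot be told apart.

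**Figure D2:**
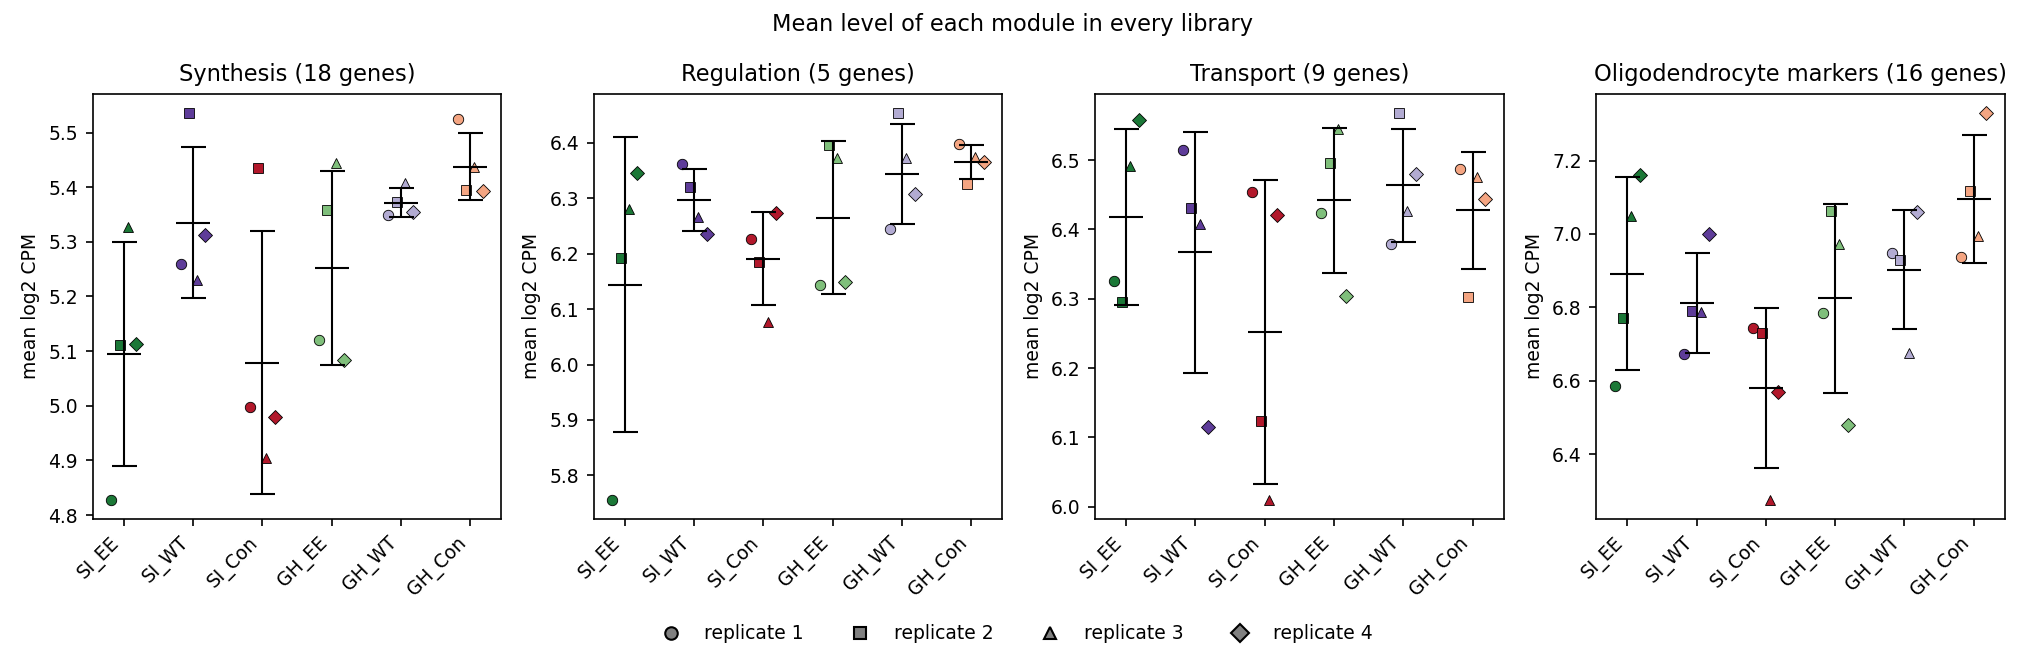
Mean log2 CPM of the 18 synthesis, 5 regulation and 9 transport genes and of 16 oligodendrocyte markers in each library, by group, with bars for the mean and SD of 4 libraries. For synthesis, 3 SI_Con libraries lie below every GH_Con library, while SI_Con 2 lies among them at 5.43.

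The first comparison, SI_Con against GH_Con, asks how social isolation bears on these genes in mice without enrichment. Most enzymes of cholesterol synthesis had fewer normalised counts in SI_Con than in GH_Con, by fold changes too small or too variable to pass the test singly. The log2 fold change was below 0 for 17 of 18 synthesis genes, with a median of -0.34, while the median over all 20354 tested genes was 0 and 49.9% of them were below 0. No gene passed an adjusted p of 0.05 in edgeR's quasi-likelihood test, so 0 of the 32 did, against a background of 0%. At an unadjusted p under 0.05, 9 synthesis genes were lower and none higher, where 3.57% of all genes were lower. Over all 32 genes 11 were lower and 1 higher, 12 in either direction, where 2.97% of all genes were higher and 6.53% were past that p in either direction. DESeq2 and limma-voom also called 0 of the 32 genes at an adjusted p of 0.05, and each gave 10 synthesis genes lower at an unadjusted p under 0.05, where 4.05% and 4.19% of all genes were.

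The smallest p belonged to Msmo1 (GRCm38 chr8:64718139-64733792, minus strand), a methylsterol monooxygenase that removes methyl groups from lanosterol-derived sterols. Msmo1 had 74.7, 63.2, 64.0 and 72.6 CPM in the SI_Con libraries, against 108, 107, 99.5 and 106 CPM in the GH_Con libraries. The groups did not overlap, and each was tight. The log2 fold change was -0.62 with an SE of 0.15 (adjusted p = 0.426 in edgeR), a fold of 0.652.

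Hmgcs1 (chr13:119690379-119708260, plus strand) had 254, 300, 158 and 205 CPM in SI_Con, against 346, 313, 335 and 324 CPM in GH_Con. All 4 SI_Con libraries were lower, though SI_Con 2 came close to GH_Con 2. Its log2 fold change was -0.53 with an SE of 0.19 (adjusted p = 0.602 in edgeR). Idi1 (chr13:8885501-8892451, plus strand), which isomerises isopentenyl diphosphate, had 20.4, 41.1, 20.3 and 29.4 CPM in SI_Con, against 56.0, 38.3, 47.3 and 57.3 CPM in GH_Con. Here SI_Con 2 overlapped the GH_Con range, and the log2 fold change of -0.84 was the lowest of the 32 genes (adjusted p = 0.567 in edgeR). Squalene epoxidase, encoded by Sqle (chr15:59315077-59331192, plus strand), had 54.0, 71.3, 35.0 and 45.7 CPM in SI_Con, against 77.4, 69.4, 73.4 and 74.1 CPM in GH_Con. SI_Con 2 again lay within the GH_Con range, and the log2 fold change was -0.51 (adjusted p = 0.637 in edgeR).

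Sc5d and Hsd17b7, which act late in the sterol conversion, also had all 4 SI_Con libraries below all 4 GH_Con libraries, with log2 fold changes of -0.29 and -0.44. With Msmo1 and Hmgcs1 this made 4 of 18 synthesis genes, where 2.61% of all genes showed that arrangement. Mvd (-0.52), Lss (-0.49) and Nsdhl (-0.38) completed the 9 at an unadjusted p under 0.05 but overlapped between groups. Dhcr7, the last reductase of one branch, was at -0.48 with a 95% interval from -0.93 to -0.02 but an unadjusted p of 0.0513 in edgeR. At the other end, Pmvk was at 0.09, Ebp at -0.02, Tm7sf2 at -0.02 and Fdft1, squalene synthase, at -0.06, so the fold changes were uneven. Within SI_Con, each of these genes was highest in SI_Con 2 or SI_Con 3, which are libraries with lower long genes. The part of this in their fold changes was not tested.

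Among the regulators, Insig1 (chr5:28071363-28078662, plus strand) had 66.5, 98.7, 54.2 and 65.6 CPM in SI_Con, against 116, 94.3, 108 and 110 CPM in GH_Con. Only SI_Con 2 reached the GH_Con range, and the log2 fold change was -0.59 with an SE of 0.16 (adjusted p = 0.452 in edgeR). Insig1 is itself a target of the SREBP factors. Insig2 (chr1:121304353-121332589, minus strand), which encodes the second INSIG protein, had 44.1, 42.9, 46.4 and 48.3 CPM in SI_Con, against 35.7, 39.8, 41.3 and 35.7 CPM in GH_Con. All 4 SI_Con libraries were higher, by 0.25 on the log2 scale (adjusted p = 0.611 in edgeR), where 1.96% of all genes had all 4 higher. Scap also had all 4 higher, at 0.13, and Srebf1 all 4 lower, at -0.18, where 2.61% of all genes had all 4 lower. Srebf2 had 252, 138, 174 and 240 CPM in SI_Con, against 278, 249, 280 and 271 CPM in GH_Con. It was low in SI_Con 2 and SI_Con 3, which are libraries with lower long genes, and its log2 fold change was -0.42 with a 95% interval from -0.98 to 0.13.

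Among the transport genes, Stard4, a carrier of cholesterol through the cytosol, had 43.9, 48.7, 30.4 and 40.9 CPM in SI_Con, against 63.6, 58.9, 65.7 and 55.3 CPM in GH_Con. The groups did not overlap, and the log2 fold change was -0.57 with an SE of 0.19 (adjusted p = 0.548 in edgeR). The other 8 transport genes had p above 0.05. They included the efflux pumps Abca1 (-0.09), Abcg1 (0.08) and Abcg4 (0.01), the esterifying enzyme Soat1 (-0.05) and Cyp46a1 (-0.03). Lrp8, a receptor for reelin and lipoproteins, had 79.0, 28.7, 23.8 and 63.7 CPM in SI_Con, against 69.6, 63.3, 71.1 and 65.2 CPM in GH_Con. Its low values stood in SI_Con 2 and SI_Con 3 alone. Lrp1 showed the same libraries, with 710, 381, 399 and 626 CPM in SI_Con, against 654, 394, 634 and 554 CPM in GH_Con, where GH_Con 2 was low as well.

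Markers of oligodendrocytes moved with this comparison. Of 16 oligodendrocyte markers, 16 were below 0 with a median of -0.54, 13 of them at an unadjusted p under 0.05, and their summed level was 3990 to 4400 CPM in SI_Con against 4840 to 6440 CPM in GH_Con. The 10 microglial markers were also all below 0, with a median of -0.48 and a summed level of 267 to 405 CPM in SI_Con against 336 to 598 CPM in GH_Con. The medians were -0.20 for 11 astrocyte markers, summed at 3660 to 5290 CPM in SI_Con against 4590 to 5990 CPM in GH_Con, and 0.05 for 10 neuronal markers, summed at 11400 to 12800 CPM in SI_Con against 11400 to 12500 CPM in GH_Con. Of other tissue, 8 of 8 striatal markers were below 0, with a median of -0.46, and 6 of 6 choroid plexus markers above 0, with a median of 1.76 and a summed level of 21.7 to 1080 CPM in SI_Con against 9.93 to 65.9 CPM in GH_Con. No oligodendrocyte, astrocyte or neuronal marker was at 0 in any library, and 1 microglial marker was at 0 in at least 1 library. Their part in the result was not tested. Without the 4 libraries with lower long genes, 18 of 18 synthesis genes were below 0 with a median of -0.43, and 9 were lower at an unadjusted p under 0.05. That last count was 2 without SI_Con 3, 5 without GH_Con 1 or SI_Con 4, and 12 without SI_Con 2, where the median was -0.52. Past that p in either direction were 935 of 20761 genes without SI_Con 3 and 1673 of 20765 without SI_Con 2.

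**Figure D3:**
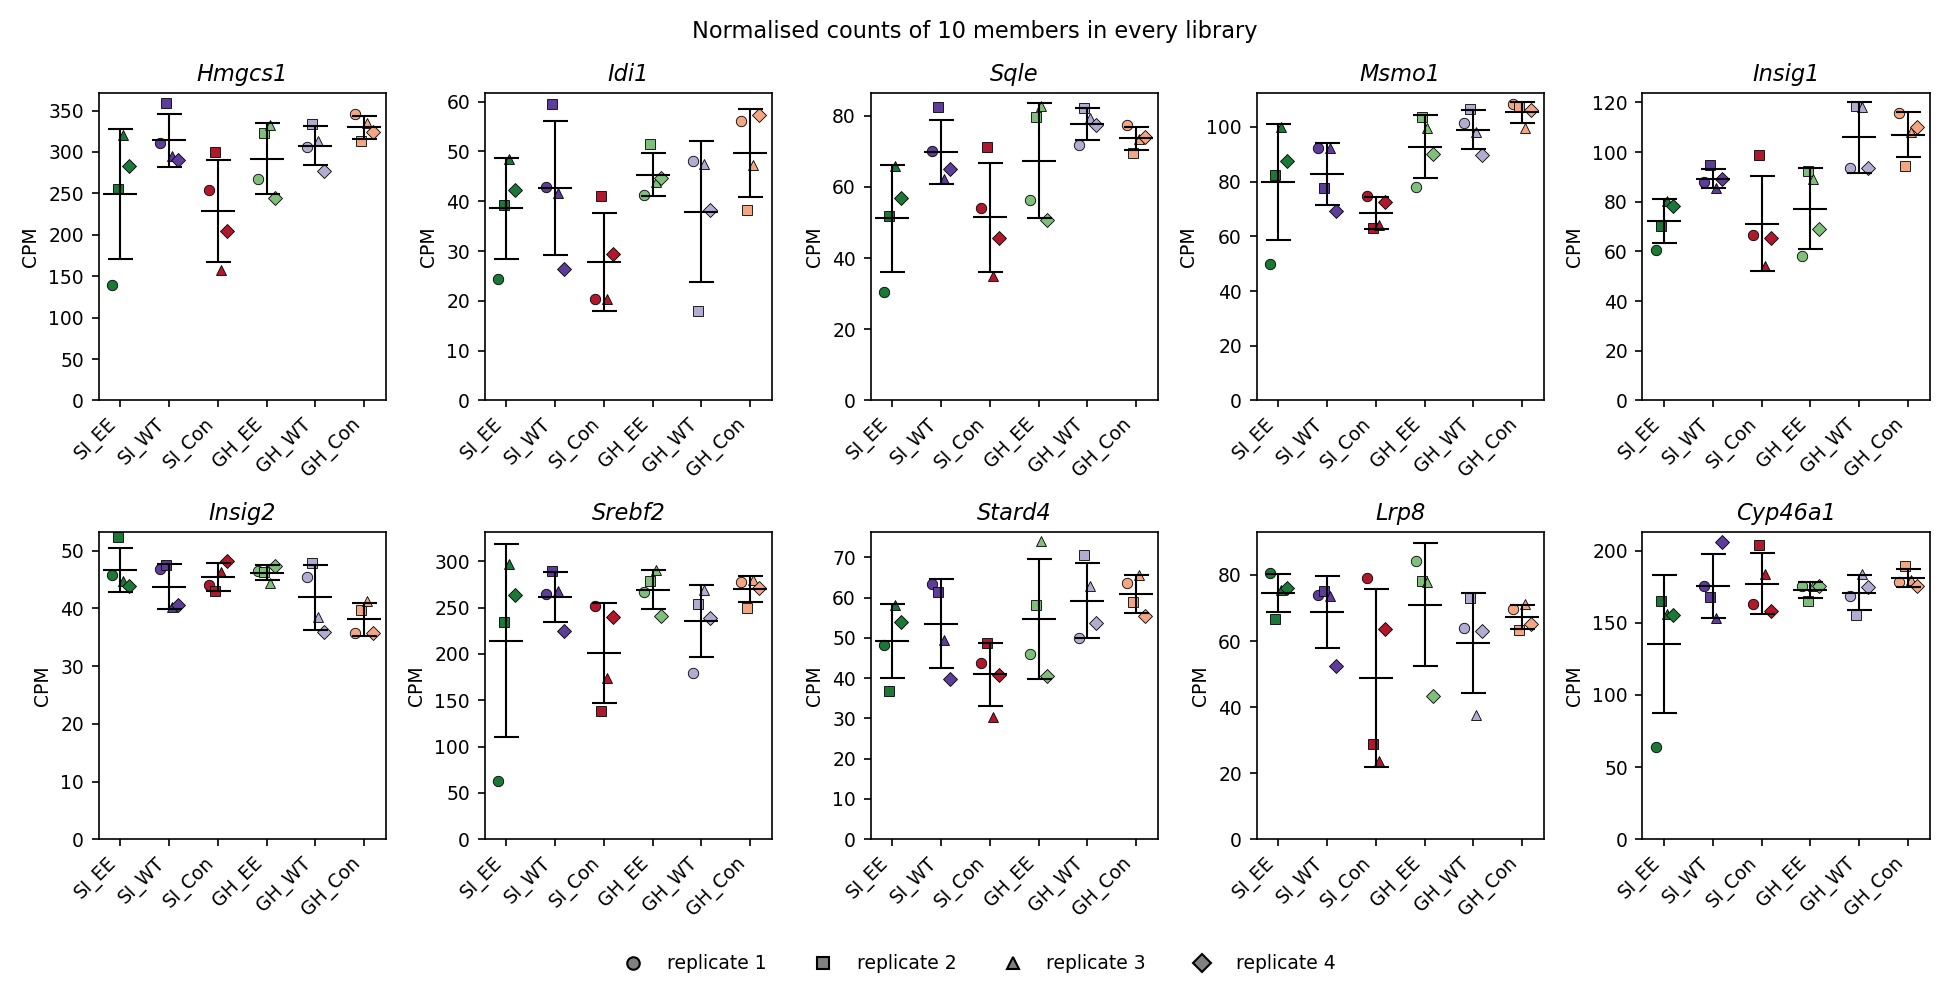
CPM of 10 of the genes in each library, by group, with bars for the mean and SD of 4 libraries and symbols for the replicate number. Msmo1 in SI_Con sits between 63.2 and 74.7 CPM, below the 99.5 to 108 CPM of GH_Con, and Lrp8 is low in SI_Con 2 and SI_Con 3.

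Enrichment was set against control housing within the isolated mice by comparing SI_EE with SI_Con. The synthesis genes were divided, with 9 of 18 below 0 and a median of 0.01, where 49.3% of all genes were below 0. None of the 32 genes passed an adjusted p of 0.05 in edgeR (background 0%), and by DESeq2 and limma-voom also none did. At an unadjusted p under 0.05 there were 3 of the 32, where 12.6% of all genes were, so their share was not above that of all genes. The 3 were Scap, Lrp8 and Cyp46a1. That count was 1 without SI_Con 2, SI_Con 3 or the 4 libraries with lower long genes and with sex as a covariate, 5 without SI_EE 1, and 0 with only the groups compared in the fit. Without SI_EE 1, 2176 of 20718 genes were past that p.

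Scap had 71.5, 83.3, 78.4 and 90.6 CPM in SI_EE, against 91.0, 95.9, 88.0 and 97.2 CPM in SI_Con, a log2 fold change of -0.20 (adjusted p = 0.324 in edgeR). SI_EE 4 overlapped the SI_Con range. Lrp8 had 80.4, 66.5, 75.3 and 76.0 CPM in SI_EE against the uneven SI_Con values above, a log2 fold change of 0.61 (adjusted p = 0.383 in edgeR) that was 0.06 without the 4 libraries with lower long genes. Cyp46a1 had 64.1, 165, 156 and 155 CPM in SI_EE, against 163, 204, 184 and 158 CPM in SI_Con. The low value is SI_EE 1, the library with cerebellar transcripts, and the log2 fold change of -0.39 (adjusted p = 0.387 in edgeR) was -0.15 without it.

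SI_EE 1 set the extreme of other genes too. It held 62.5 CPM of Srebf2 where SI_EE 2, 3 and 4 had 235, 297 and 263 CPM, 139 CPM of Hmgcs1 where they had 255, 321 and 283 CPM, and 79.7 CPM of Abca1 where they had 28.0, 39.0 and 50.1 CPM. Without SI_EE 1, 11 of 18 synthesis genes lay above 0 with a median of 0.07, and 3 were higher at an unadjusted p under 0.05. The number below 0 was 4 without SI_Con 2, 12 without SI_Con 3 and 3 without the 4 libraries with lower long genes. Of the transport genes, 8 of 9 lay above 0, where 50.7% of all genes did, and the mean of their log2 CPM was 6.42 ± 0.13 in SI_EE and 6.25 ± 0.22 in SI_Con (SD, n = 4 each). That difference of 0.17 was -0.03 once the 4 libraries with lower long genes were left out. Of 16 oligodendrocyte markers, 15 were above 0 with a median of 0.33, at 4050 to 5740 CPM summed in SI_EE against 3990 to 4400 CPM in SI_Con. Neuronal markers were below 0 in 9 of 10, with a median of -0.21, and cerebellar markers above 0 in 10 of 10, with a median of 4.35. Thalamic and habenular markers were above 0 in 8 of 8, with a median of 0.64. Their part in these values was not tested.

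The WT arm was compared with control within the isolated mice. In SI_WT, 17 of 18 synthesis genes lay above 0 relative to SI_Con, with a median of 0.25, where 48.9% of all genes were above 0. No gene passed an adjusted p of 0.05 (background 0%), and none of the 32 did with edgeR, DESeq2 or limma-voom. At an unadjusted p under 0.05, 5 synthesis genes were higher, where 1.4% of all genes were. They were Hmgcs1, Sc5d, Fdps, Idi1 and Sqle, with log2 fold changes of 0.46, 0.23, 0.41, 0.62 and 0.44.

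Hmgcs1 had 311, 360, 295 and 291 CPM in SI_WT, against 254, 300, 158 and 205 CPM in SI_Con (adjusted p = 1 in edgeR). Only SI_Con 2 overlapped the SI_WT range. Fdps, which makes farnesyl diphosphate, had 43.7, 53.8, 38.2 and 65.6 CPM in SI_WT, against 31.7, 57.8, 32.2 and 30.1 CPM in SI_Con. Again SI_Con 2 alone stood among the SI_WT values. Sc5d, a sterol desaturase, had 76.8, 95.3, 77.2 and 64.0 CPM in SI_WT, against 71.7, 73.0, 54.6 and 67.7 CPM in SI_Con, and SI_WT 4 overlapped. Idi1 had 43.0, 59.6, 41.6 and 26.5 CPM in SI_WT, and Sqle 70.1, 82.4, 62.2 and 64.9 CPM.

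Because SI_Con also stands in the first comparison, these differences share its 4 libraries and do not repeat it independently. The synthesis count of 5 was 0 without SI_Con 3 or without SI_WT 2, 2 without SI_Con 4 or SI_WT 1, 3 without SI_Con 1, 9 without SI_Con 2 and 7 without the 4 libraries with lower long genes. In the last 2 settings, 891 of 20765 and 630 of 21178 genes were past that p in either direction. In the main edgeR fit, neither the regulators nor the transport genes held one at an unadjusted p under 0.05. This was not so in every setting. By DESeq2 and by limma-voom, 7 of the listed genes passed that p, of which 5 were synthesis genes. Of all 20354 genes, 916 and 774 passed it. With no filter on low counts or with sex as a covariate, 8 passed, of which 6 were synthesis genes. Of all genes, 1287 of 34521 and 799 of 20354 did. All that passed were synthesis genes with a mean CPM of at least 1 as filter (5) or only the groups compared in the fit (3). There, 545 of 15574 and 554 of 18548 genes passed. Insig1 was at 0.33 with a 95% interval from 0.01 to 0.64, and Stard4 at 0.39 with an interval from 0.02 to 0.76 (adjusted p = 1 for both in edgeR). Both intervals exclude 0 at a p above 0.05, because they rest on a normal quantile and are narrower than the quasi-likelihood test implies. Oligodendrocyte markers had a median of 0.21, with 14 of 16 above 0 and 4030 to 5490 CPM summed in SI_WT against 3990 to 4400 CPM in SI_Con. Microglial markers had a median of 0.45 with 10 of 10 above 0, at 291 to 573 CPM summed in SI_WT against 267 to 405 CPM in SI_Con. Choroid plexus markers were below 0 in 6 of 6, with a median of -3.71, 5 of them at an unadjusted p under 0.05, at 5.47 to 12.4 CPM summed in SI_WT against 21.7 to 1080 CPM in SI_Con. Markers of the meninges were below 0 in 7 of 7, with a median of -1.18, 5 at an unadjusted p under 0.05, at 11.1 to 18.9 CPM summed in SI_WT against 21.8 to 38.4 CPM in SI_Con. Thalamic and habenular markers were below 0 in 8 of 8, with a median of -0.68. The part of these markers in the values was not tested.

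In the GH mice, enrichment was set against control by comparing GH_EE with GH_Con. Here 17 of 18 synthesis genes were below 0, with a median of -0.17, where 53.6% of all genes were below 0 and the median over all genes was -0.02. Of all genes, 1 passed an adjusted p of 0.05 (0.00491%), and it was not among the 32. DESeq2 and limma-voom called none of the 32. Lss at -0.44 and Mvk, mevalonate kinase, at -0.37 were lower at an unadjusted p under 0.05, as were 3.7% of all genes. That count of 2 was 0 without GH_Con 1, GH_Con 3 or GH_EE 4, 1 without GH_Con 2, GH_EE 1 or GH_EE 2, and 3 once the 4 libraries with lower long genes were left out. The median of -0.17 was -0.08 without GH_EE 4, with 14 of 18 below 0, and -0.11 without GH_EE 1.

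The regulators led this comparison. Insig1 had 58.2, 92.3, 89.1 and 69.2 CPM in GH_EE, against 116, 94.3, 108 and 110 CPM in GH_Con. The groups did not overlap, though GH_EE 2 and GH_Con 2 were close, and the log2 fold change was -0.47 with an SE of 0.16 (adjusted p = 0.575 in edgeR). Insig2 had 46.5, 46.3, 44.3 and 47.4 CPM in GH_EE, against 35.7, 39.8, 41.3 and 35.7 CPM in GH_Con. All 4 were higher, by 0.28 on the log2 scale (adjusted p = 0.575 in edgeR).

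Srebf1, whose product acts mainly on fatty acid synthesis, had 28.5, 37.9, 35.6 and 27.3 CPM in GH_EE, against 43.1, 41.6, 38.1 and 41.0 CPM in GH_Con. All 4 were lower, with a log2 fold change of -0.34 (adjusted p = 0.600 in edgeR). The SI_Con libraries also lay below all 4 of GH_Con for this gene. Srebf2 itself had 267, 278, 290 and 241 CPM in GH_EE, against 278, 249, 280 and 271 CPM in GH_Con, so its groups overlapped fully. Of all genes, 4.06% had all 4 libraries lower and 4.5% all 4 higher, and 2.62% were higher at an unadjusted p under 0.05. Insig1 and Insig2 thus lay on opposite sides of 0 in both SI_Con and GH_EE, each relative to the same GH_Con libraries. Oligodendrocyte markers were below 0 in 16 of 16, with a median of -0.21 and 3940 to 5380 CPM summed in GH_EE against 4840 to 6440 CPM in GH_Con. Microglial markers were below 0 in 9 of 10, with a median of -0.35, at 297 to 444 CPM summed in GH_EE against 336 to 598 CPM in GH_Con. Astrocyte markers were below 0 in 9 of 11, with a median of -0.16, 2 of them at an unadjusted p under 0.05 and with all 4 libraries lower for 2, at 4660 to 5400 CPM summed in GH_EE against 4590 to 5990 CPM in GH_Con. Neuronal markers were above 0 in 8 of 10, with a median of 0.10. The part of these markers was not tested.

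The WT arm of the GH mice was compared with GH_Con, and the mean synthesis levels were 5.37 ± 0.03 in GH_WT and 5.44 ± 0.06 in GH_Con (SD, n = 4 each). None of the 32 genes had an unadjusted p under 0.05 in edgeR, where 3.42% of all genes did, and none passed the adjusted threshold (background 0%) in edgeR, DESeq2 or limma-voom. Synthesis genes were below 0 in 13 of 18, with a median of -0.07, where 51.4% of all genes were below 0. That median was -0.03 without GH_Con 1, and 1 of the 32 had an unadjusted p under 0.05 without GH_WT 4 or with only the groups compared in the fit. Lss had 33.1, 32.2, 31.5 and 29.1 CPM in GH_WT, against 44.1, 35.1, 39.0 and 34.5 CPM in GH_Con, all 4 lower, as for 2.02% of all genes (log2 fold change -0.28, adjusted p = 1 in edgeR). Idi1 was at -0.39 with a 95% interval from -0.95 to 0.17, and GH_WT 2 alone held 17.9 CPM where GH_WT 1, 3 and 4 held 48.2, 47.4 and 38.3 CPM. Insig2 had 45.4, 47.9, 38.5 and 36.0 CPM in GH_WT, against 35.7, 39.8, 41.3 and 35.7 CPM in GH_Con, and the groups overlapped (log2 fold change 0.14, adjusted p = 1 in edgeR). These values do not show that the arms are alike. Oligodendrocyte markers were below 0 in 16 of 16, with a median of -0.17 and 4260 to 5780 CPM summed in GH_WT against 4840 to 6440 CPM in GH_Con. Thalamic and habenular markers were above 0 in 8 of 8, with a median of 2.39, 7 of them at an unadjusted p under 0.05, at 157 to 587 CPM summed in GH_WT against 125 to 178 CPM in GH_Con. Striatal markers were below 0 in 8 of 8, with a median of -0.73, and choroid plexus markers above 0 in 6 of 6, with a median of 1.31. Microglial markers were below 0 in 9 of 10, with a median of -0.22. The part of these markers was not tested.

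Isolation was also compared within the other arms. In SI_EE against GH_EE, 0 of the 32 genes had an unadjusted p under 0.05 in edgeR, where 8.7% of all genes did, and 15 of 18 synthesis genes were below 0 with a median of -0.16, where 47.1% of all genes were below 0. The median was -0.05 without SI_EE 1 and -0.26 without SI_EE 3. The count of 0 was 4 without SI_EE 3, 3 of them synthesis genes that were lower, and 2 without SI_EE 2, SI_EE 4, GH_EE 1 or GH_EE 4. Without SI_EE 3, 2327 of 20775 genes were past that p. Microglial and neuronal markers were each below 0 in 10 of 10, both with a median of -0.31, at 183 to 438 and 5810 to 12500 CPM summed in SI_EE against 297 to 444 and 11800 to 12400 CPM in GH_EE. Cerebellar markers were above 0 in 10 of 10, with a median of 4.08 and all 10 at an unadjusted p under 0.05, and striatal markers below 0 in 8 of 8, with a median of -0.42. Their part was not tested. Sqle had 30.5, 51.7, 65.8 and 56.8 CPM in SI_EE, against 56.3, 79.6, 82.8 and 50.7 CPM in GH_EE (log2 fold change -0.40, adjusted p = 0.603 in edgeR), and the log2 fold change was -0.21 without SI_EE 1. Cyp46a1 had 64.1, 165, 156 and 155 CPM in SI_EE, against 175, 165, 175 and 175 CPM in GH_EE (log2 fold change -0.35, adjusted p = 0.605 in edgeR), and the log2 fold change was -0.12 without SI_EE 1. Scap had 71.5, 83.3, 78.4 and 90.6 CPM in SI_EE, against 85.0, 93.5, 95.6 and 82.5 CPM in GH_EE, with overlap and a log2 fold change of -0.14 (adjusted p = 0.652 in edgeR). None passed the adjusted threshold in edgeR, DESeq2 or limma-voom, where 1 of all genes did in edgeR (0.00491%).

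In SI_WT against GH_WT the synthesis genes were divided, 9 below and 9 above 0, where 50.5% of all genes were below 0. The transport genes held 2 of the 3 genes at an unadjusted p under 0.05, where 5.37% of all genes were. That count of 3 was 0 without GH_WT 2, without SI_WT 4 or without the 4 libraries with lower long genes, and 1 without GH_WT 3, GH_WT 4 or SI_WT 2. Markers of neighbouring tissue also differed in level. Thalamic and habenular markers were below 0 in 8 of 8, with a median of -2.87 and 7 at an unadjusted p under 0.05, at 97 to 184 CPM summed in SI_WT against 157 to 587 CPM in GH_WT. Markers of the meninges were below 0 in 7 of 7, with a median of -1.42 and all 7 at an unadjusted p under 0.05, at 11.1 to 18.9 CPM summed in SI_WT against 21.5 to 55.6 CPM in GH_WT. Choroid plexus markers were below 0 in 6 of 6, with a median of -2.90 and 3 at an unadjusted p under 0.05, while 8 of 8 striatal markers were above 0, with a median of 0.55. Oligodendrocyte markers were below 0 in 14 of 16, with a median of -0.12. Without both GH_WT 2 and GH_WT 4, 1 of the 32 genes had an unadjusted p under 0.05, and the part of these markers was not tested. Npc1, which exports cholesterol from lysosomes, had 78.8, 72.1, 78.5 and 64.0 CPM in SI_WT, against 86.2, 96.9, 87.0 and 89.1 CPM in GH_WT. All 4 were lower, as for 2.24% of all genes, with a log2 fold change of -0.29 (adjusted p = 0.878 in edgeR). Abca1, which loads cholesterol onto lipoproteins and is a target of the oxysterol receptor LXR, had 47.2, 34.7, 39.2 and 30.8 CPM in SI_WT, against 39.9, 60.3, 52.6 and 60.7 CPM in GH_WT. GH_WT 1 overlapped, and the log2 fold change was -0.49 (adjusted p = 0.913 in edgeR). Pmvk, phosphomevalonate kinase, had 24.3, 35.8, 28.2 and 35.1 CPM in SI_WT, against 26.1, 24.7, 23.5 and 28.8 CPM in GH_WT, a log2 fold change of 0.26 (adjusted p = 0.906 in edgeR). None passed the adjusted threshold (background 0%) in edgeR, DESeq2 or limma-voom.

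**Figure D4:**
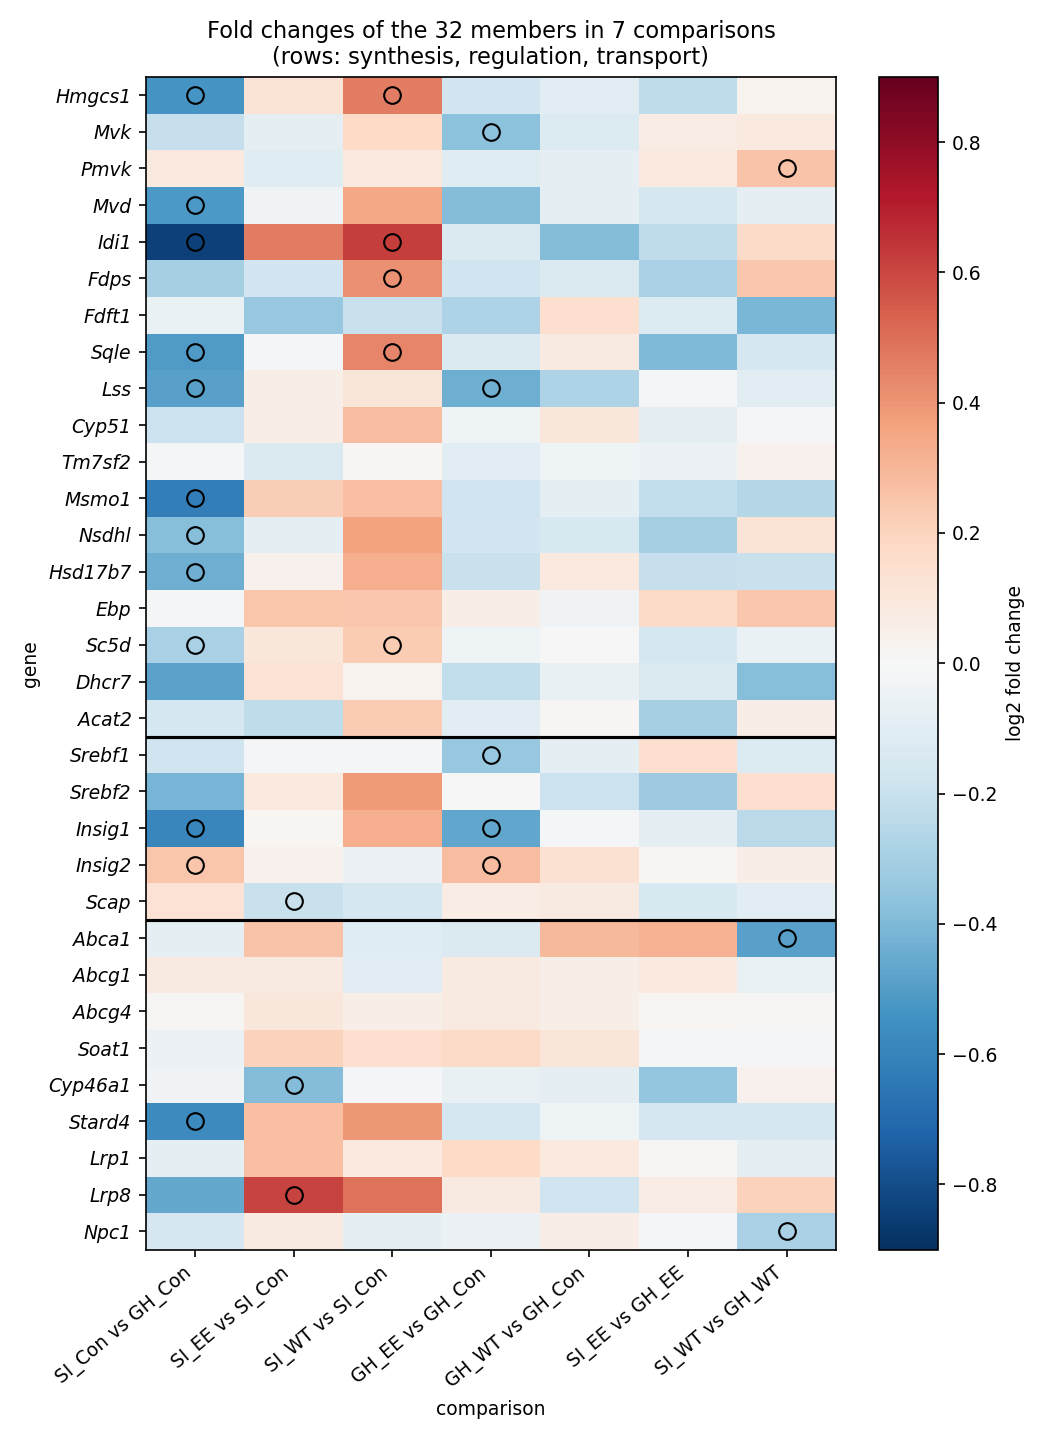
Log2 fold changes of the 32 genes in 7 comparisons, blue below 0 and red above 0, in blocks of synthesis, regulation and transport genes from top to bottom. Circles mark an unadjusted p under 0.05, of which SI_Con against GH_Con holds 12, and no cell passed an adjusted p of 0.05.

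Whether an effect differed by housing was tested directly. The difference of the WT effect between the SI and the GH mice was above 0 for 17 of 18 synthesis genes, with a median of 0.28, where 49.6% of all genes were above 0. Idi1 was at 1.01 with an SE of 0.40 (adjusted p = 1 in edgeR), the only one of the 32 at an unadjusted p under 0.05, where 4.52% of all genes were. Left-out libraries moved the Idi1 difference between 0.78, without GH_WT 2, and 1.26, without SI_Con 2. Hmgcs1 followed at 0.56 with an SE of 0.27 and Scap was at -0.24. Oligodendrocyte markers had the same sign in this test, with 16 of 16 above 0 and a median of 0.34, as had 10 of 10 microglial markers, with a median of 0.66, and 8 of 8 striatal markers, with a median of 1.04. Below 0 were 6 of 6 choroid plexus markers, with a median of -4.66 and 5 at an unadjusted p under 0.05, 7 of 7 markers of the meninges, with a median of -1.27 and 4 at that p, and 8 of 8 thalamic and habenular markers, with a median of -3.24 and 7 at that p. For enrichment the same difference was above 0 for 15 of 18 synthesis genes, with a median of 0.16, where 51.6% of all genes were. Of the 32 genes, 2 had an unadjusted p under 0.05, where 7.74% of all genes had. These were Scap at -0.27 (adjusted p = 0.582 in edgeR) and Insig1 at 0.49 (adjusted p = 0.614 in edgeR). Srebf1 was at 0.33, with 37.0, 29.1, 33.9 and 43.2 CPM in SI_EE against 34.9, 36.0, 36.3 and 37.3 CPM in SI_Con on the isolated side. The 16 oligodendrocyte markers were all above 0, with a median of 0.52, while neuronal markers were below 0 in 10 of 10, with a median of -0.30, and cerebellar markers above 0 in 10 of 10, with a median of 4.38. The part of markers in either test was not tested. Leaving out SI_Con 2 gave 7 of the 32 at an unadjusted p under 0.05 for the WT arm and 6 for enrichment. Of the 20765 genes tested in that setting, 1139 and 1741 were past that p. Leaving out SI_WT 2, or both GH_WT 2 and GH_WT 4, gave 0 for the WT arm. The enrichment median of 0.16 was 0.08 without SI_EE 3, 0.09 without GH_EE 4, 0.25 without SI_EE 1 and 0.28 without SI_Con 2. No gene passed the adjusted threshold in either test by edgeR (0%), and none of the 32 did by DESeq2 or limma-voom.

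A test of any difference among the 6 groups gave 4 of the 32 genes an unadjusted p under 0.05, where 8.23% of all genes had one and 0.0491% passed the adjusted threshold. The adjusted p was 0.315 for Insig1, 0.396 for Msmo1, 0.543 for Sqle and 0.603 for Hsd17b7 in edgeR. DESeq2's likelihood ratio test called 1 of the 32, Insig1 (adjusted p = 0.0234), where it called 1.06% of all genes, and limma-voom called none. Insig1 ran from 60.6 to 80.2 CPM in SI_EE, 85.5 to 94.9 CPM in SI_WT, 54.2 to 98.7 CPM in SI_Con, 58.2 to 92.3 CPM in GH_EE, 93.5 to 119 CPM in GH_WT and 94.3 to 116 CPM in GH_Con. GH_WT and GH_Con do not differ beyond their spread, nor do SI_EE, SI_Con and GH_EE. The count of 4 was 9 without SI_Con 2, 8 without SI_WT 4 and 7 without SI_EE 1. Of all genes, 1718 of 20765, 1933 of 20762 and 1634 of 20718 had such a p in these settings.

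The levels of the leading genes in the groups not yet given were as follows. Hmgcs1 had 268, 323, 333 and 245 CPM in GH_EE and 306, 334, 313 and 277 CPM in GH_WT, so both overlapped GH_Con. Sqle had 71.6, 82.1, 79.2 and 77.4 CPM in GH_WT, about level with GH_Con. Idi1 had 24.4, 39.3, 48.5 and 42.2 CPM in SI_EE and 41.3, 51.5, 43.8 and 44.8 CPM in GH_EE, and the low SI_EE value is the library with cerebellar transcripts. Srebf2 had 265, 289, 268 and 224 CPM in SI_WT and 180, 254, 269 and 239 CPM in GH_WT, with GH_WT 1 low. Insig1 had 60.6, 70.4, 80.2 and 78.1 CPM in SI_EE, 88.0, 94.9, 85.5 and 89.1 CPM in SI_WT, and 93.5, 119, 118 and 93.6 CPM in GH_WT. Cyp46a1 had 175, 168, 153 and 206 CPM in SI_WT, 169, 155, 184 and 175 CPM in GH_WT and 178, 190, 180 and 176 CPM in GH_Con. The 3 groups overlap.

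Abca1 and Lrp1 differ in which libraries set their extremes. Abca1 had 44.9, 32.5, 39.9 and 46.5 CPM in SI_Con, 29.9, 46.9, 45.2 and 37.2 CPM in GH_EE and 51.8, 37.4, 40.2 and 44.6 CPM in GH_Con, all below the 79.7 CPM of SI_EE 1. Lrp1 had 628, 507, 688 and 723 CPM in SI_EE, 654, 609, 639 and 344 CPM in SI_WT, 647, 607, 663 and 616 CPM in GH_EE and 553, 665, 592 and 570 CPM in GH_WT. Its 4 lowest libraries of the 24 were the 4 with lower long genes, at 344 to 399 CPM.

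The genes also varied together between libraries of the same group. With group means removed, the median Spearman correlation over 24 libraries was 0.33 among the 153 pairs of synthesis genes, 0.30 among 36 pairs of transport genes and 0.16 among 10 pairs of regulators. It was 0.00 among pairs of 2000 genes drawn from all tested genes. Correlations above 0.5 made up 28.8% of the synthesis pairs and 5.12% of the pairs of drawn genes. These points share libraries, depth and tissue composition, so the values are a description.

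Insig1 had the highest median correlation with the synthesis genes, 0.58, followed by Sqle with 0.57 and Hmgcs1 with 0.55. Stard4, at 0.38, was highest of the transport genes, while Srebf2 was at 0.25 and Abcg1 at -0.36. Pmvk (0.06), Tm7sf2 (0.04) and Ebp (-0.03), enzymes of the same pathway, had medians near 0, with correlations in both directions. They were at 0.67 to 0.74 with each other and at 0.53 to 0.76 with Mvd, against -0.64 to -0.49 with Msmo1. Within SI_EE, these genes and Mvd were highest and Msmo1 lowest in SI_EE 1, the library with cerebellar transcripts. Within SI_WT, Mvd, Ebp and Tm7sf2 were highest and Msmo1 lowest in SI_WT 4, a library with lower long genes. The part of such libraries in these correlations was not tested.

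**Figure D5:**
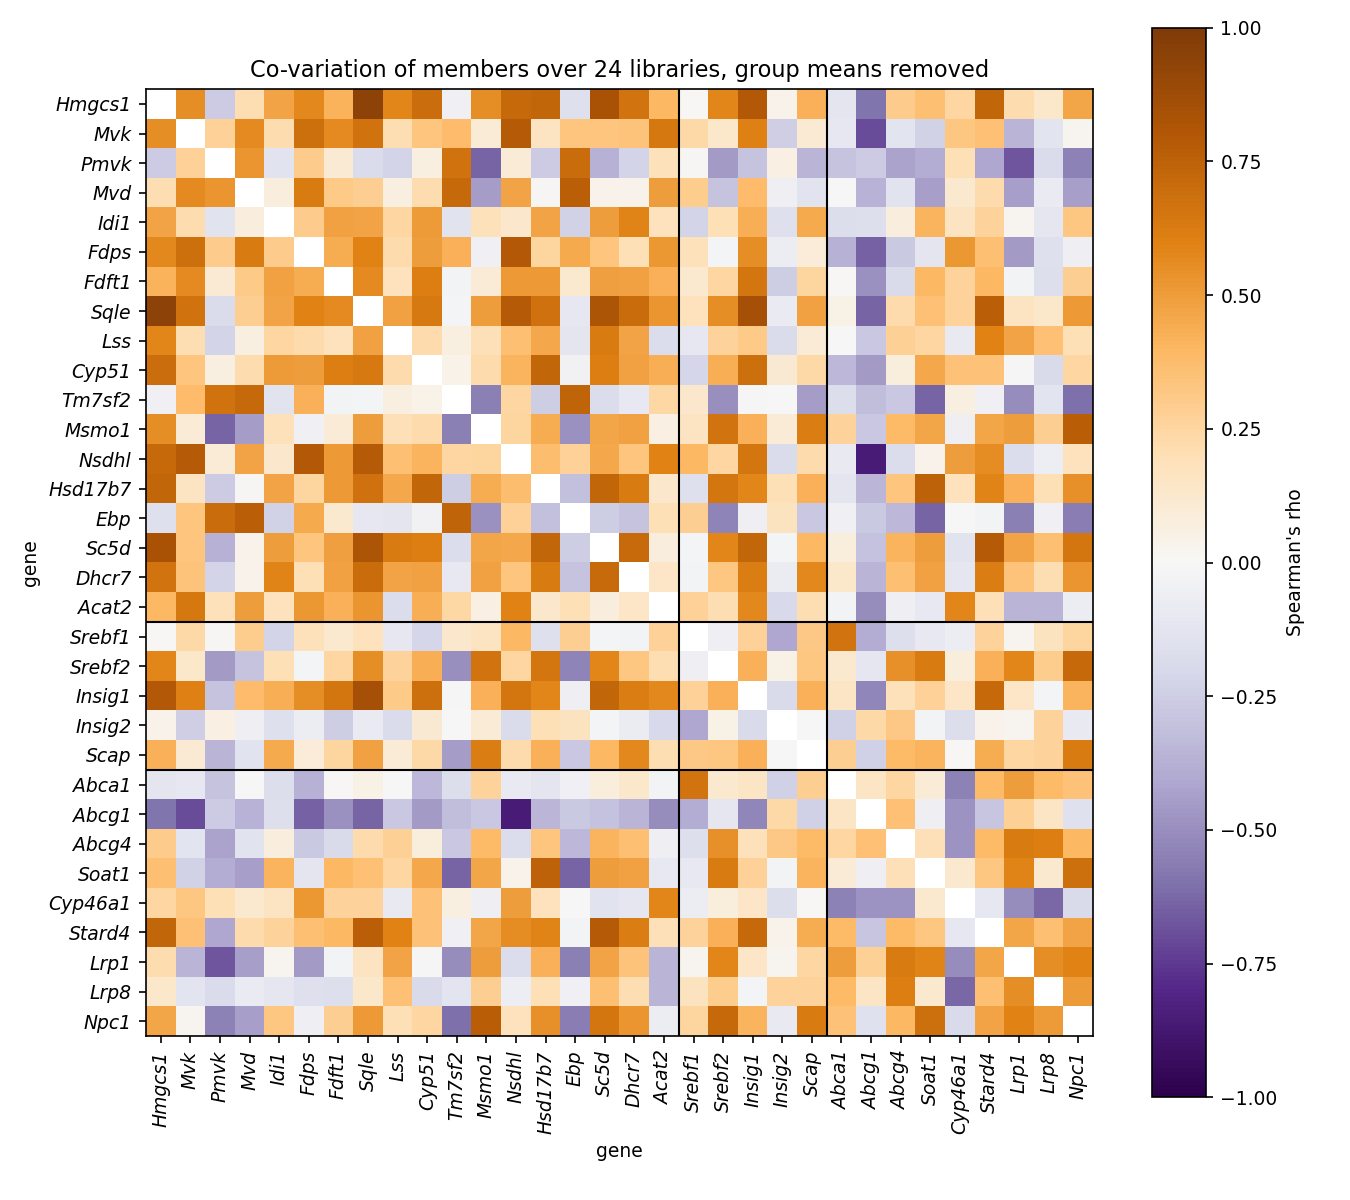
Spearman's rho between the 32 genes over 24 libraries after group means were removed, orange above 0 and purple below 0, with lines between synthesis, regulation and transport genes. Hmgcs1, Sqle, Sc5d and Insig1 form orange stripes, and Abcg1 is mostly purple against the synthesis genes, with a median of -0.36.

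Related lists of genes were counted in the same fit. In SI_Con against GH_Con, 14 of 15 fatty acid synthesis genes were below 0, with a median of -0.23 and 3 lower at an unadjusted p under 0.05. The smallest p was that of Mid1ip1, an activator of acetyl-CoA carboxylase, at -0.54 with all 4 SI_Con libraries lower (adjusted p = 0.541 in edgeR). In SI_WT against SI_Con, 15 of 15 were above 0, with a median of 0.18, and the smallest p was that of malic enzyme, Me1, at 0.20 (adjusted p = 1). In GH_EE against GH_Con they were divided, 8 below and 7 above 0.

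Other arms of sterol biology were nearer to 0 in SI_Con against GH_Con. The median was 0.00 for 21 other sterol-handling genes, 0.04 for 11 genes of SREBP processing and turnover and 0.12 for 9 genes that use mevalonate for products other than sterols. Their smallest p values were those of Osbpl2, an oxysterol-binding protein, at 0.18 (adjusted p = 0.711), of Syvn1, a ubiquitin ligase of the endoplasmic reticulum, at 0.12 (adjusted p = 0.859), and of Pggt1b, a subunit of the enzyme that attaches a lipid of this pathway to proteins, at -0.17 (adjusted p = 0.835, all in edgeR). In SI_EE against SI_Con, 12 of 15 fatty acid synthesis genes were above 0, with a median of 0.14 and the smallest p at Elovl5, a fatty acid elongase (0.29, adjusted p = 0.212 in edgeR). None of these companion genes passed an adjusted p of 0.05 in the 7 comparisons or the 2 housing differences by edgeR.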

How the data were processed

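RNA from medial prefrontal cortex was sequenced in 24 libraries, and the authors deposited whole-number counts per Ensembl gene, not normalised as judged from the values. The build was mm10, per the submitters' processing notes. No aligner, counter, annotation or strand setting is given in the sources used here. Of 56750 entries, 52073 (91.8%) were paired with a symbol. Reads shared with close copies, such as Idi1 with Idi2 or Acat2 with Acat3, could have been split by the counting, so these values are uncertain. Total counts per library ran from 33683587 to 51274917, and intervals cover the spread between samples.

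Counts were tested in R 4.3.3 with edgeR 4.0.16, by its quasi-likelihood test with TMM factors, filterByExpr and robust dispersion, with all 24 libraries in 1 fit and no covariate. This kept 20354 genes, all 32 described here among them, and Benjamini-Hochberg adjustment ran over all of them. The SE is the log2 fold change over the square root of F. CPM were scaled by the TMM factors, with a prior count of 2 on the log2 scale. DESeq2 1.42.0 and limma-voom (limma 3.58.1), other filters, size factors, sex as a covariate, a replicate block and left-out libraries were alternatives. The 3 tools were tested on simulated data. Exon lengths are from GENCODE M21 (GRCm38, the assembly of mm10), and promoter windows, matched by symbol for 25 genes, from RefSeq GRCm38.p6.

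Nothing in the labels ties a library to a single animal, so p-values cover only the spread among these samples. That spread may be technical in part, though both sexes were read within each group. Comparisons share groups and are not independent. Values per library are given for the 3 genes with the smallest p of each comparison and for Hmgcs1, Sqle, Idi1, Srebf2, Insig1, Abca1, Cyp46a1 and Lrp1. The genes, the companion and marker lists and the libraries left out were chosen with earlier results of these data known. The counts of synthesis genes below or above 0 and at an unadjusted p under 0.05 were added to the alternatives after the data were seen.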

Additional observations from a re-analysis of the deposited data

Results flagged for a closer look

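Among 132 sets of 4 libraries checked, 6 values were flagged as apart from the other libraries of their group by Dixon's test. The test flags about 1 in 20 sets by chance, and the number flagged was not above that. It weighs the gap against the range of the 4 values, so a small gap can be flagged where the others are nearly equal. Lrp8 was 43.3 CPM in GH_EE 4, against 78.0 to 84.1 CPM in the other GH_EE libraries, and 52.4 CPM in SI_WT 4, against 73.5 to 75.1 CPM in the other SI_WT libraries. Lrp1 was 344 CPM in SI_WT 4, against 609 to 654 CPM in the others. Cyp46a1 was 64.1 CPM in SI_EE 1, the library with cerebellar transcripts, against 155 to 165 CPM in the others, and 165 CPM in GH_EE 2, against 175 CPM in each of the others. Fdps was 57.8 CPM in SI_Con 2, against 30.1 to 32.2 CPM in the other SI_Con libraries. SI_WT 4 and SI_Con 2 are libraries with lower long genes. The part of this in their values was not tested.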

How the results depend on the processing

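The precision rests on 4 libraries a group, some of which differed in tissue content. None of the 32 genes was past the adjusted threshold in the main fit, so there was no call that could turn round. Differences of mean levels close to 0 changed sign in some settings. Among the 32 genes, the count past an adjusted p of 0.05 stayed 0 in all 7 comparisons and both housing differences under every alternative run, and in the 6-group test it was 1 by DESeq2. Over all genes, edgeR and DESeq2 called 0 and 33 in SI_Con against GH_Con, 0 and 174 in SI_EE against SI_Con, 0 and 2 in SI_WT against SI_Con, 1 and 26 in GH_EE against GH_Con, 0 and 10 in GH_WT against GH_Con, 1 and 22 in SI_EE against GH_EE, 0 and 12 in SI_WT against GH_WT, and 10 and 215 in the 6-group test; for the enrichment difference by housing the numbers were 0 and 29.

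The count of synthesis genes lower in SI_Con than in GH_Con at an unadjusted p under 0.05, 9, ran from 2 to 12 when each library was left out. It was 7 with only the groups compared in the fit and 8 with sex as a covariate. The count higher in SI_WT than in SI_Con, 5, ran from 0 to 9, and was 3 with only the groups compared in the fit. With the median over genes in place of the mean, the difference of the regulators was -0.30 for SI_Con minus GH_Con, 0.25 for SI_WT minus SI_Con, 0.08 for GH_WT minus GH_Con and -0.13 for SI_WT minus GH_WT. The transport difference of SI_EE minus SI_Con was -0.03 once the 4 libraries with lower long genes were left out. The cause was not tested.

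Replicate numbers gave no sign of pairing: at most 1 of 4 same-numbered pairs correlated over 0.1 in any comparison. The labels do not say what the numbers share, and 4 pairs a comparison are too few to settle it. With the replicate number as a block, 0 of the 32 genes passed an adjusted p of 0.05 in each comparison, and 10 synthesis genes were lower in SI_Con than in GH_Con at an unadjusted p under 0.05.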
